A study of Rattus norvegicus with 6 samples.

Results

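The CC chemokines described here are 8 secreted ligands, Ccl2, Ccl3, Ccl4, Ccl5, Ccl6, Ccl7, Ccl9 and Ccl20, of the 14497 genes that had a probe set with exactly 1 gene symbol. They were taken by symbol, with the probe set of the highest mean standing for a gene, and each of the 8 had 1 such probe set. Their RNA was measured on 6 Affymetrix rat whole-transcript arrays, 1 array per group, in male Sprague-Dawley rats. The groups were young naive rats (3 to 5 months old), aged naive rats (18 to 20 months), young rats (3 to 4 months) at 3 d and at 14 d after stroke, and aged rats (19 to 20 months) at 3 d and at 14 d after stroke. For the stroke a hook raised the middle cerebral artery and so interrupted its flow temporarily, and the tissue was the brain area around it. Naive rats had no stroke, and their tissue is labelled healthy brain with no region given. Each array carried the pooled RNA of 15 naive rats, of 19 young stroke rats or of 23 aged stroke rats, so no array shows how single animals varied.

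Chemokines are small secreted proteins that bind to heparan sulfate on vessel walls and matrix and draw leukocytes along their gradient through G protein-coupled receptors. The CC class is named after a pair of neighbouring cysteines. Ccl2 and Ccl7 act on Ccr2 and call monocytes out of the bone marrow and into inflamed tissue. Ccl3, Ccl4 and Ccl5 attract monocytes, activated T cells and natural killer cells, and Ccl3 and Ccl5 do so in part through Ccr1. Ccl6 and Ccl9 are rodent myeloid chemokines that bind Ccr1, and Ccl20 acts on Ccr6, which is found on interleukin-17-producing T cells. In injured brain, microglia, infiltrating macrophages, astrocytes and endothelial cells are known sources of Ccl2, while Ccl3 and Ccl4 come mostly from microglia and macrophages.

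Values are on a log2 scale, as deposited, and array medians lay between 7.09 and 7.15. The 40th percentile of an array, between 6.49 and 6.62, served as the floor: a gene entered the tests if it reached that level on at least 1 array, which 10947 genes did. The tests were limma fits across these genes with age and time as additive terms, so that the young and aged arrays act as 2 repeats of a time effect. Errors are standard errors from that fit, and a call means a Benjamini-Hochberg adjusted p below 0.05. Of the 8 members 7 were tested. Ccl20 lay below the floor on every array, and Ccl3, Ccl4, Ccl6, Ccl7 and Ccl9 reached it on stroke arrays alone. Those 5 entered through the groups where they were high, so counts of members are a description and no support for a rise of the family, and the size of their changes from a dim naive level is uncertain. The same limit holds for other genes of the lists used here that reached the floor on stroke arrays alone, and for their lists' counts and medians: Ccl24, Ccr2, Ccrl2, Il1a, Il1b, Il1rn, Rgs1, Was, Mmp8, Mmp12, Cd14, Cd163, Ms4a7, Plac8, Lck, Cd5 and Il7r. Neuron markers were bright in every group: the unlogged levels of 7 of them summed to 26175 and 25398 on the young and aged naive arrays and to 18697 to 20779 on the stroke arrays.

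The monocyte attractants Ccl2 and Ccl7 peaked at 3 d in both ages and were lower again at 14 d. The myeloid chemokines Ccl6 and Ccl9 were above their naive level at both times, and Ccl3 and Ccl4 passed the test at 14 d only. For Ccl3, Ccl4, Ccl6 and Ccl9 the highest of the 6 arrays was that of aged rats at 14 d. Ccl5 did not pass in any comparison, and Ccl20 moved little. At 3 d 4 of the 7 tested members were called higher, where 14.4% of all tested genes were, and at 14 d 5 of 7, where 13.6% were. No member was called lower than naive, as 7.87% and 11.4% of genes were at 3 d and 14 d.

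**Figure D1:**
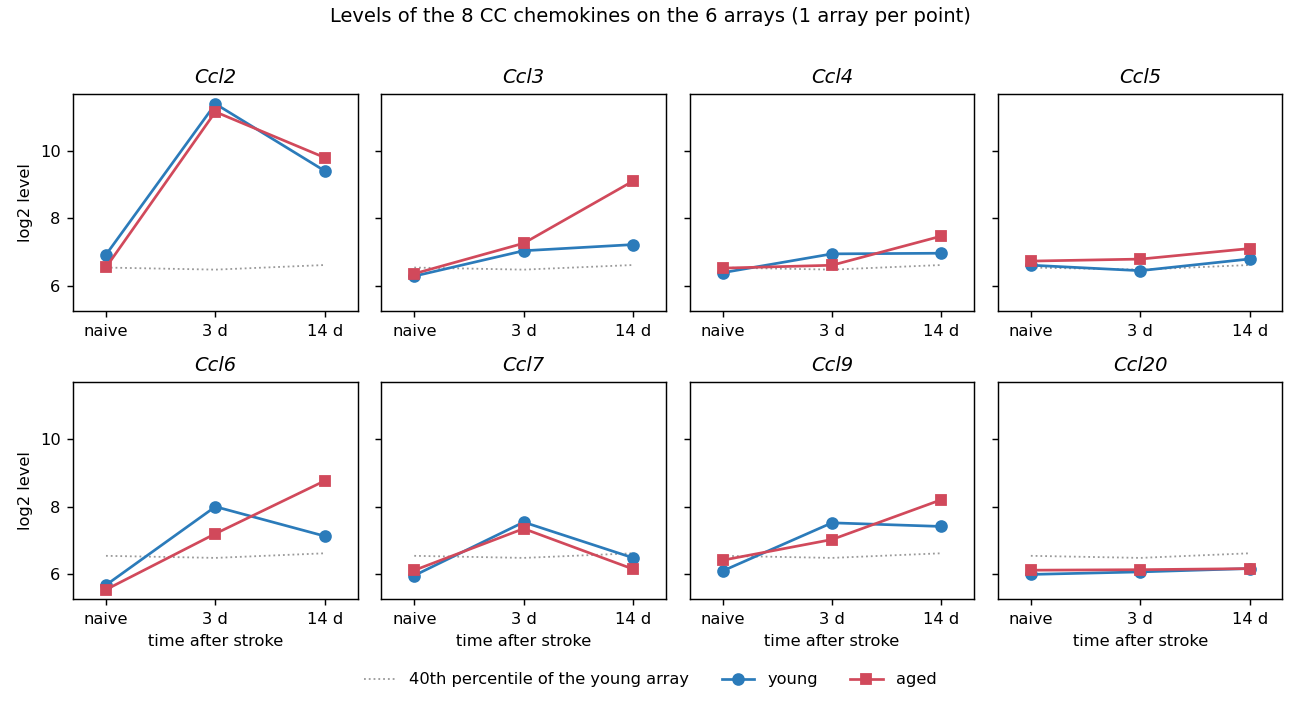
Log2 level (vertical axis) of each of the 8 CC chemokines on the naive, 3 d and 14 d arrays (horizontal axis), with young rats as circles and aged rats as squares, 1 array per point, and the 40th percentile of the young arrays as a dotted line. Ccl2 and Ccl7 are highest at 3 d in both ages, Ccl3, Ccl4, Ccl6 and Ccl9 are highest on the aged 14 d array, and Ccl20 stays below the dotted line.

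Ccl2 had the largest changes of the 8. Its level was 6.93 (young) and 6.55 (aged) on the naive arrays, 11.38 and 11.14 at 3 d, and 9.40 and 9.79 at 14 d. All 4 stroke arrays lay above both naive arrays, and both 3 d arrays above both 14 d arrays. The rise at 3 d was 4.52 ± 0.19 (log2 change), a 23.0-fold change, with limma's adjusted p = 4.6e-05 over all tested genes, and it was the fourth largest rise among them. At 14 d Ccl2 was still higher than naive by 2.86 ± 0.19 (7.24-fold, limma's adjusted p = 0.00013). Between these times it fell by 1.66 ± 0.19 on the log2 scale (limma's adjusted p = 0.0035), in young rats by 1.98 and in aged rats by 1.35. These 3 calls held in all 13 alternatives run, and the 3 d change ranged from 4.30 to 4.75.

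Ccl7, whose gene lies next to Ccl2 and which shares the receptor Ccr2, followed the same order of times at a smaller size. Its levels were 5.97 (young) and 6.12 (aged) on the naive arrays, 7.54 and 7.35 at 3 d, and 6.49 and 6.16 at 14 d. The 3 d arrays stood apart from the other 4, and the aged 14 d array was only 0.04 above the aged naive one. At 3 d Ccl7 rose by 1.40 ± 0.15 (2.64-fold, limma's adjusted p = 0.0007), and from 3 d to 14 d it fell by 1.12 ± 0.15 on the log2 scale (limma's adjusted p = 0.0071). At 14 d the change from naive was 0.28 ± 0.15, with a 95% interval from -0.07 to 0.62 and limma's adjusted p = 0.21. Both calls held in the 12 alternatives in which Ccl7 was tested. Ccl2 and Ccl7 were the 2 members among the 1.82% of tested genes called lower at 14 d than at 3 d, and no member was among the 1.34% called higher.

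The gene order of the RefSeq assembly GRCr8 separates the members into 2 neighbourhoods of chromosome 10, with Ccl20 on chromosome 9. Ccl2, Ccl7, Ccl11 and Ccl12 follow each other without another protein-coding gene between them, and so do Ccl5, Ccl9, Ccl6, Ccl3 and Ccl4 further along. The second neighbourhood holds the 4 members that were highest on the aged 14 d array, and also Ccl5, whose highest value of 7.11 was on that array too. In the first, Ccl11 and Ccl12 stayed below the floor on every array. Ccl12 read 4.86 and 4.90 on the young and aged naive arrays, 5.00 and 5.22 at 3 d, and 5.44 and 6.04 at 14 d. With no filter, its change at 14 d was 0.86 ± 0.16 (limma's adjusted p = 0.0089 over 14497 genes), a change between levels that are all dim.

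RefSeq promoter windows (GRCr8, 250 bases before to 50 after the annotated start) were at hand for 4 members. These were Ccl7 from the 3 d peak, Ccl20, which moved little, and the neighbours Ccl6 and Ccl9. Ccl6 and Ccl9 were highest on the aged 14 d array, but in young rats they were higher at 3 d than at 14 d. The windows set the 3 d peak, a neighbouring pair called at both times and a member that moved little side by side. The windows of Ccl2, Ccl3, Ccl4 and Ccl5 are not shown. Capitals mark every match to the NF-κB consensus, to TGANTCA (AP-1) and GGAAGT (the core of ETS factors such as PU.1) on either strand, and to TATAAA on the coding strand. Overlapping matches run together. The Ccl7 window is chr10:67513845-67514144 on the plus strand, Ccl6 is chr10:68883317-68883616 and Ccl9 chr10:68868828-68869127 on the minus strand, and Ccl20 is chr9:91836909-91837208 on the plus strand, all written 5′ to 3′ along the gene:
Ccl7: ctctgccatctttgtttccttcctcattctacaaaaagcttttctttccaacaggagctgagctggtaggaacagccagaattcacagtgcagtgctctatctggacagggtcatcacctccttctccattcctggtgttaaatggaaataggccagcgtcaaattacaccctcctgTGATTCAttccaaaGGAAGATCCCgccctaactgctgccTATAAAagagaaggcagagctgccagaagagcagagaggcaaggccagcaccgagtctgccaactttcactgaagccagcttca
Ccl6: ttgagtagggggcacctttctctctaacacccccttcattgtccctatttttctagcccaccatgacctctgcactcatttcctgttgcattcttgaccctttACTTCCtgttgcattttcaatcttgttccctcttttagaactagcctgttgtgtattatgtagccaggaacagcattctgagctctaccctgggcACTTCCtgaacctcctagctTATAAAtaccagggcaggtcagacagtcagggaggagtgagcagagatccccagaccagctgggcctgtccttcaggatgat
Ccl9: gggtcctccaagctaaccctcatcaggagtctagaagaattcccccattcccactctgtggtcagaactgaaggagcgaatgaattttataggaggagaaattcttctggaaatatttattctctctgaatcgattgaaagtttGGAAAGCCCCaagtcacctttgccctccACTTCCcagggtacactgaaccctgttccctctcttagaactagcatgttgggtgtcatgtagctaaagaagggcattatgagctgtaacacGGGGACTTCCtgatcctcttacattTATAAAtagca
Ccl20: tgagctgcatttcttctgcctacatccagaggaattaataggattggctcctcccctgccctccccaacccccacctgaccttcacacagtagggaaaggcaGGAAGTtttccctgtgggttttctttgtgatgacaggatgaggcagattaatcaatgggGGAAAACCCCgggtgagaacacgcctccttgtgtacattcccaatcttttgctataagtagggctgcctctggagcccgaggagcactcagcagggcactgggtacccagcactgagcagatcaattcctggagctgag

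The NF-κB consensus was in the windows of Ccl7, Ccl9 and Ccl20, and in 7.51% of the 33469 rat windows of this length. The AP-1 letters were in Ccl7 alone of the 4 (TGATTCA starting 73 bases before the start; 7.33% of all windows). GGAAGT was in Ccl6, Ccl9 and Ccl20 (22.6% of all), and TATAAA in Ccl6, Ccl7 and Ccl9 (8.8%). Ccl6 and Ccl9 resemble each other: their best local alignment covered 106 columns with 79.2% identity, while the other 5 pairs of windows aligned over at most 27. Both hold an ETS core followed by TATAAA, which in Ccl6 lie 52 and 32 bases before the annotated start and in Ccl9 at positions 19 and 40 after it. In Ccl9 that ETS core overlaps an NF-κB match, GGGGACTTCC. These matches are letters in a window, and no binding was measured.

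Ccl6 rose at both times, and its order of arrays differed between the ages. It read 5.68 (young) and 5.55 (aged) on the naive arrays, 7.998 and 7.20 at 3 d, and 7.13 and 8.76 at 14 d. All 4 stroke arrays were above both naive arrays; the young peak was at 3 d and the aged one at 14 d. The fitted rise was 1.98 ± 0.47 at 3 d (3.95-fold, limma's adjusted p = 0.0227) and 2.33 ± 0.47 at 14 d (5.02-fold, limma's adjusted p = 0.0115). From 3 d to 14 d the young level changed by -0.87 and the aged level by 1.56, and the fitted change of 0.35 ± 0.47 did not pass (limma's adjusted p = 0.88). The call at 3 d ended without either naive array (adjusted p = 0.0824 without the young and 0.199 without the aged one), without the young 3 d array (adjusted p = 0.0666, change 1.21) and with trended, robust variances (adjusted p = 0.124), all by limma; over its 13 alternatives adjusted p ran from 1.1e-06 to 0.199. The call at 14 d ended without either naive array (limma's adjusted p = 0.0538 and 0.127) and with those variances (adjusted p = 0.0848), over a range from 2.5e-07 to 0.127. The 14 d change was 1.28 without the aged 14 d array and 3.38 without the young one.

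Ccl9 had a similar but smaller course. Its levels were 6.10 and 6.42 on the young and aged naive arrays, 7.52 and 7.03 at 3 d, and 7.41 and 8.20 at 14 d. The stroke arrays did not overlap with the naive ones. It rose by 1.02 ± 0.26 at 3 d (2.02-fold, limma's adjusted p = 0.0311) and by 1.55 ± 0.26 at 14 d (2.93-fold, limma's adjusted p = 0.0057). At 3 d the young pair of arrays differed by 1.42 and the aged pair by 0.61. That call ended without the young 3 d array (limma's adjusted p = 0.206, change 0.49; without the aged 3 d array the change was 1.54) or either naive array (adjusted p = 0.172 without the young and 0.156 without the aged one), and over 13 alternatives adjusted p ran from 0.00026 to 0.206. The 14 d call ended without either naive array (limma's adjusted p = 0.0564 and 0.0543, and 1.2e-05 at the lowest).

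Ccl3, also known as MIP-1α, had 1 array far above the others. It read 6.29 (young) and 6.37 (aged) on the naive arrays, 7.04 and 7.26 at 3 d, 7.23 on the young 14 d array and 9.10 on the aged 14 d array. The 3 d arrays and the young 14 d array lay close together, above the naive pair. At 3 d the change was 0.82 ± 0.38 and did not pass (limma's adjusted p = 0.16, 95% interval -0.07 to 1.71), but it passed at the same size when either 14 d array was left out (limma's adjusted p = 0.00024 without the young and 0.00026 without the aged one; over 13 alternatives up to 0.736). At 14 d Ccl3 rose by 1.83 ± 0.38 (3.56-fold, limma's adjusted p = 0.0130). That value averages a young change of 0.93 and an aged one of 2.73; without the aged 14 d array it was 0.97, and without the young one 2.70. The call ended without the aged naive array (limma's adjusted p = 0.153) and with trended, robust variances (adjusted p = 0.0671), and the lowest adjusted p was 2.3e-07.

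Ccl4 (MIP-1β), the neighbour of Ccl3, moved less. It read 6.39 and 6.53 on the young and aged naive arrays, 6.95 and 6.61 at 3 d, and 6.97 and 7.48 at 14 d. The aged 3 d array lay only 0.09 above the aged naive array, and the 3 d change of 0.32 ± 0.19 did not pass (limma's adjusted p = 0.26). At 14 d Ccl4 rose by 0.76 ± 0.19 (1.69-fold, limma's adjusted p = 0.0259). This call ended without the aged 14 d array or either naive array (limma's adjusted p = 0.109, 0.142 without the young and 0.162 without the aged naive one), and the change without the aged 14 d array was 0.46. Over 12 alternatives limma's adjusted p began at 0.00091.

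Ccl5 (RANTES), best known as a product of activated T cells, read 6.62 (young) and 6.74 (aged) on the naive arrays, 6.45 and 6.80 at 3 d, and 6.80 and 7.11 at 14 d. Stroke and naive arrays overlapped. Its change was -0.05 ± 0.12 at 3 d, with a 95% interval from -0.34 to 0.24, and 0.28 ± 0.12 at 14 d, with an interval from -0.01 to 0.57 (limma's adjusted p = 0.79 and 0.15). In each of the 3 pairs of matched arrays the aged value was the higher one. Ccl20 read 5.998 and 6.12 on the naive arrays, 6.07 and 6.14 at 3 d, and 6.17 and 6.17 at 14 d. The widest gap between 2 arrays was 0.17 and all lay below the floor, so a change in a level this dim could be missed. With no filter its changes were 0.05 ± 0.13 at 3 d and 0.11 ± 0.13 at 14 d (limma's adjusted p = 0.85 and 0.65).

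**Figure D2:**
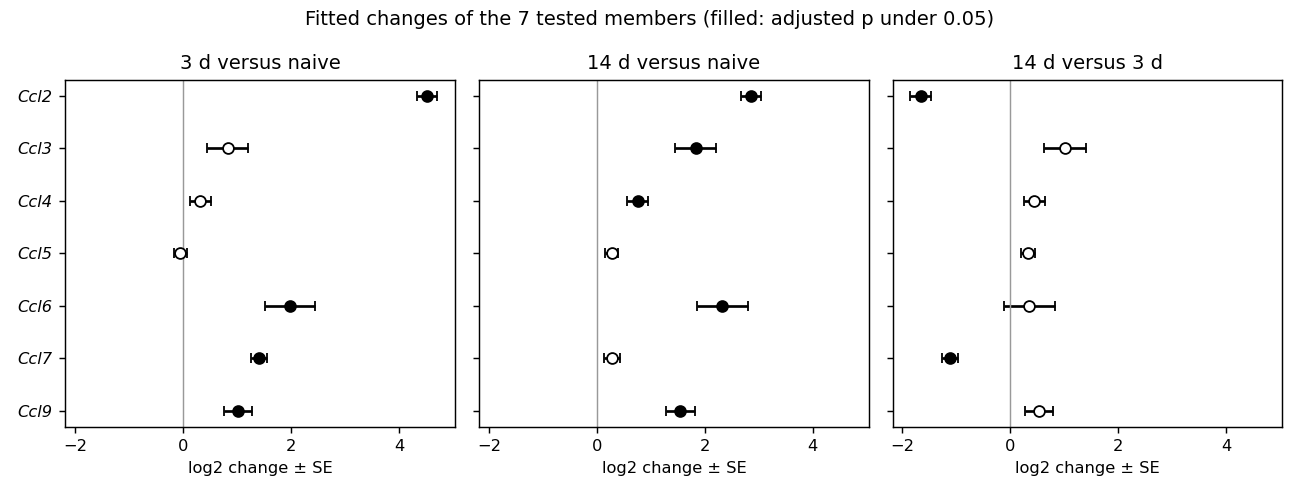
Fitted log2 change (horizontal axis) of the 7 tested CC chemokines, 1 row each, for 3 d against naive, 14 d against naive and 14 d against 3 d, with bars for ± 1 standard error of the limma fit on 6 arrays. Filled points passed an adjusted p of 0.05: Ccl2, Ccl6, Ccl7 and Ccl9 at 3 d, Ccl2, Ccl3, Ccl4, Ccl6 and Ccl9 at 14 d, and Ccl2 and Ccl7, lower, between the stroke times.

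Age was compared next. Averaged over the 3 times, no member and no other gene passed between aged and young rats: limma called 0 of 10947, with 852 at an unadjusted p below 0.05. The fitted age differences of the 7 members ran from -0.12 (Ccl7) to 0.72 ± 0.31 (Ccl3, limma's adjusted p = 0.64). That of Ccl3 was 0.15 without either 14 d array and 1.05 without either naive array. The age difference was not the same at each time. On the naive arrays aged minus young lay between -0.37 (Ccl2) and 0.32 (Ccl9). At 3 d it was -0.80 for Ccl6, -0.49 for Ccl9, -0.34 for Ccl4, -0.24 for Ccl2 and -0.19 for Ccl7, and above 0 for Ccl5 (0.34) and Ccl3 (0.22). At 14 d it was 1.88 for Ccl3, 1.63 for Ccl6, 0.79 for Ccl9, 0.51 for Ccl4, 0.39 for Ccl2 and 0.31 for Ccl5, and it was below 0 for Ccl7 (-0.33). Among the 10947 tested genes, 52.1% were higher on the aged 14 d array, and the age differences of Ccl3 and Ccl6 ranked 4 and 13 from the top. Over all tested genes the age difference was also more spread at 14 d (SD 0.336 across genes) than on the naive arrays (0.173) or at 3 d (0.22).

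**Figure D3:**
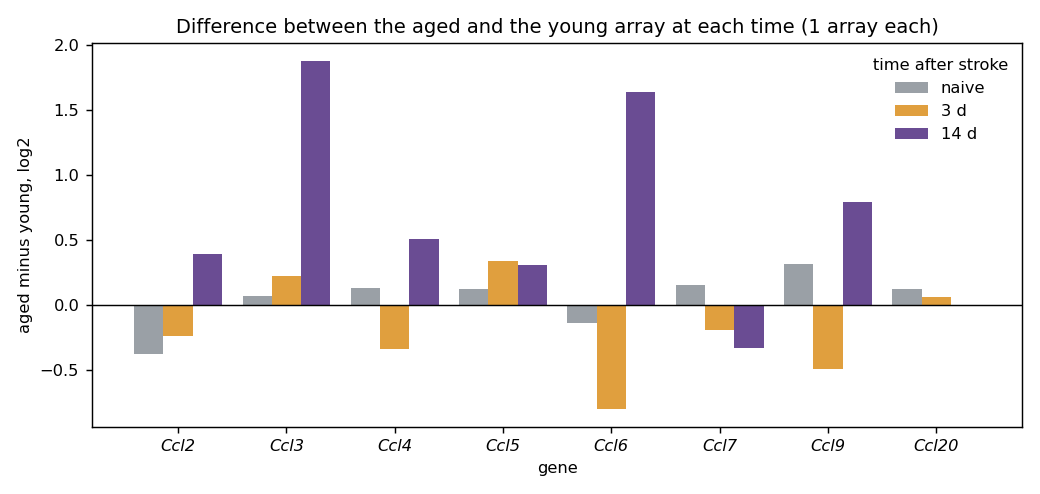
Aged minus young level on the log2 scale (vertical axis) for each of the 8 CC chemokines (horizontal axis) at the naive, 3 d and 14 d times, 1 array per group and so with no error bar. The 14 d bars of Ccl3 (1.88) and Ccl6 (1.63) are the tallest, and Ccl6, Ccl9, Ccl4, Ccl2 and Ccl7 have 3 d bars below 0.

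Whether the age difference at 1 time departs from that at the other 2 was tested with an age-by-time term in limma, which leaves 1 residual degree of freedom besides the variance prior. At 14 d the term was 1.73 ± 0.21 for Ccl3 (limma's adjusted p = 0.0065) and 2.10 ± 0.26 for Ccl6 (adjusted p = 0.0066). They were 2 of 43 called genes, 0.393% of those tested, and the term was above 0 for 41 of the 43. An unadjusted p below 0.05 was reached by 1463 genes, against 321 for the 3 d term and 278 for the naive one. Ccl9 (0.88 ± 0.29), Ccl2 (0.70 ± 0.21) and Ccl4 (0.61 ± 0.24) were on the same side and did not pass (limma's adjusted p = 0.21, 0.16 and 0.29). Ccl7 (-0.31 ± 0.22) and Ccl5 (0.08 ± 0.21) did not pass either (limma's adjusted p = 0.59 and 0.92). Both calls ended with quantile normalization, at nearly the same size (Ccl3 1.74, adjusted p = 0.0653; Ccl6 2.09, adjusted p = 0.0913), where limma called 0 genes in all and 1318 had an unadjusted p below 0.05. They held in the other 5 alternatives, with limma's adjusted p from 0.002. At 3 d no member was called, where 0.00913% of genes (1 gene) were, and at the naive time no gene was. The largest 3 d terms were -1.55 ± 0.50 for Ccl6 and -1.05 ± 0.28 for Ccl9 (limma's adjusted p = 1 for both). The aged 14 d array was 1 pool of 23 rats, so an age effect cannot be told apart from a difference of that pool or array.

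**Figure D4:**
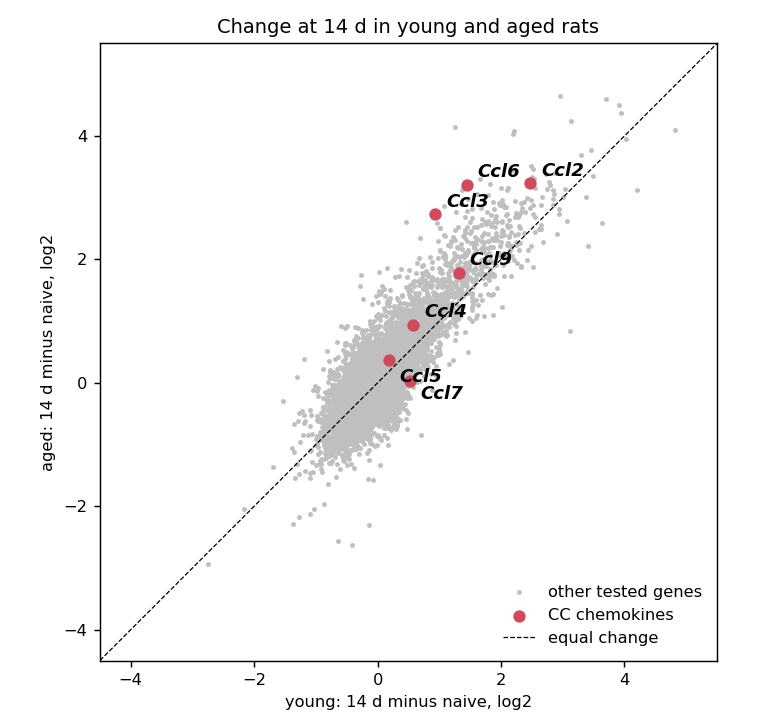
Log2 change from naive to 14 d in young (horizontal axis) and aged rats (vertical axis) for 10947 tested genes, each from 1 pair of arrays, with the 7 tested CC chemokines labelled and a dashed line where both ages change equally. Ccl3 (0.93 and 2.73) and Ccl6 (1.44 and 3.21) lie well above the line, and Ccl7 (0.52 and 0.04) below it.

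Markers of cells that could carry these RNAs were measured beside the members. Of 9 monocyte and macrophage markers 8 rose at 3 d and 8 at 14 d, with medians of 2.08 and 1.79 against -0.03 and -0.06 over all tested genes. From 3 d to 14 d, where Ccl2 and Ccl7 were called lower, 0 of the 9 were called in either direction. Of all tested genes only 1.34% were called higher and 1.82% lower, so 0 of 9 says little. The median change of the 9 was then 0.24, against -0.03 over all tested genes. Cd14 and Cd163 were lower at 14 d than at 3 d in both ages, and Cd68, Itgam and Csf1r were higher in both. The other markers fell in young and rose in aged rats. The unlogged levels of the 9 summed to 1525 and 1934 on the young and aged naive arrays, 6530 and 6343 at 3 d, and 6180 and 10104 at 14 d. Csf1r, at 9.73 and 10.12, was the brightest of the 9 on the naive arrays and weighs most in those 2 sums. Whether the list tells these cells from microglia was not tested. At 14 d all 9 were higher on the aged array, as Ccl3 and Ccl6 were. The widest gaps were those of Plac8 (7.80 young, 9.49 aged) and Cd68 (10.22 and 11.48), and the narrowest that of Cd163 (7.08 and 7.15). On the naive arrays 7 of the 9 were already higher in aged rats, and at 3 d 3 of the 9. In limma's age-by-time test at 14 d 0 of the 9 passed, where 0.393% of all tested genes did, and 5 of the 9 had an unadjusted p below 0.05, as did 1463 of the 10947. All 6 microglia markers rose at both times, and their sum at 14 d was 6773 (young) and 8720 (aged). Of 6 astrocyte markers 2 rose at 3 d and 4 at 14 d (medians 0.24 and 0.45). Of 5 endothelial markers 3 rose at each time (medians 0.52 and 0.45). Of all tested genes 14.4% were called higher at 3 d and 13.6% at 14 d. The part of these cells in the chemokine levels was not tested, and in tissue RNA more cells of a type and more RNA per cell cannot be told apart. Of 8 neutrophil markers, 6, Mpo and S100a8 among them, were below the floor on every array, and of the 2 tested Mmp8 rose. Of 8 T cell markers 5, Cd3d, Cd3e and Cd3g among them, were below it on every array, and of the 3 tested Il7r rose, by 1.26 at 3 d.

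Among the receptors, Ccr2, through which Ccl2 and Ccl7 act, was the only one of 4 tested that passed, where 14.4% of all tested genes were called higher at 3 d and 13.6% at 14 d. It was below the floor on both naive arrays and on the young 14 d array, and entered through the other 3. It read 5.53 and 5.32 on the young and aged naive arrays, 7.27 and 6.93 at 3 d, and 6.13 and 6.71 at 14 d, so that it too was highest at 3 d in both ages. Its rise was 1.68 at 3 d and 0.998 at 14 d (limma's adjusted p = 0.0017 and 0.015). Ccr7, Ccr10 and Ccrl2 did not pass at either time, and Ccr1, Ccr3, Ccr4, Ccr6 and Ccr9 lay below the floor on every array, so Ccr1, which Ccl3, Ccl6 and Ccl9 bind, and Ccr6, which Ccl20 binds, could not be followed. Ccr1 read 4.89 and 5.03 on the young and aged naive arrays, 5.47 and 5.28 at 3 d, and 5.14 and 5.225 at 14 d. Each stroke array was above both naive ones, but all these levels are dim and the change was not tested. Ccr8 was not analysed here. The atypical receptors Ackr2 and Ackr3, which bind chemokines without G protein signalling, changed by at most 0.17 on average at either time and did not pass.

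Of 11 other CC ligands measured, 4 were tested. Ccl19, a ligand of Ccr7 that guides dendritic cells and T cells, rose by 0.82 at 14 d (limma's adjusted p = 0.003) and was higher at 14 d than at 3 d by 0.72 (adjusted p = 0.02). Its levels were 7.06 and 7.24 in the naive groups, 7.20 and 7.29 at 3 d, and 7.85 and 8.08 at 14 d. Ccl27 was lower at 3 d by 0.64, with limma's adjusted p = 0.028 and levels of 9.60 and 9.25 on the naive arrays against 8.66 and 8.92. Ccl17 and Ccl24 did not pass at either time.

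**Figure D5:**
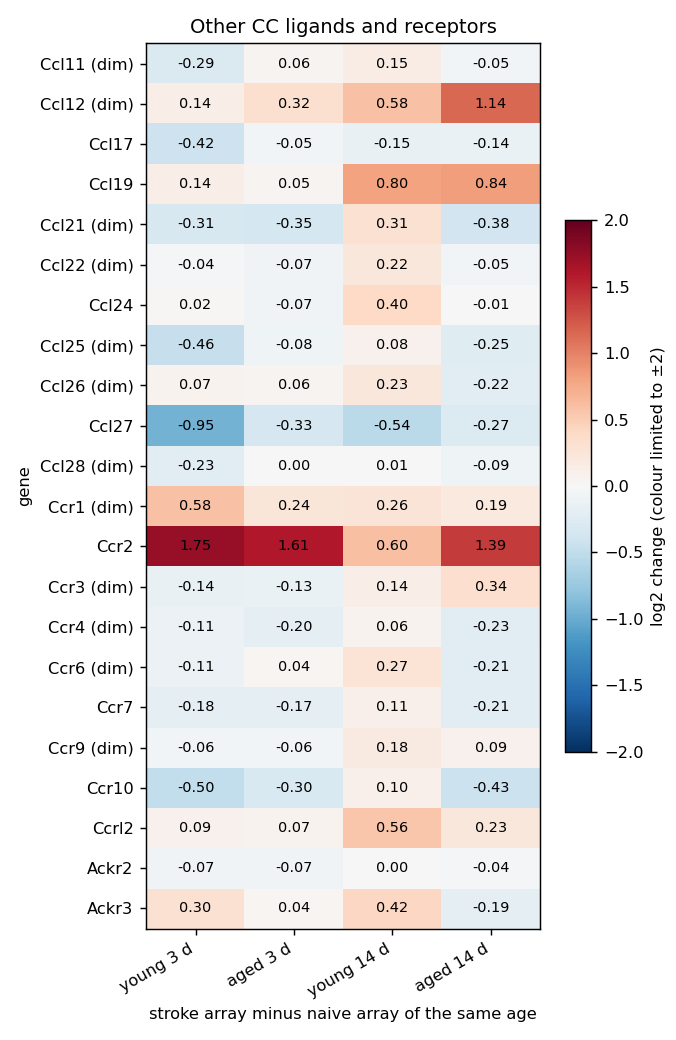
Log2 change between each stroke array and the naive array of the same age (columns) for 22 other CC ligands, CC receptors and atypical receptors (rows), with the value in each cell; genes marked dim lay below the 40th percentile on every array. Ccr2 has values of 1.75, 1.61, 0.60 and 1.39, and Ccl19 is higher at 14 d alone (0.80 and 0.84).

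Genes known to act upstream of CC chemokines were measured beside them. Of all tested genes 14.4% were called higher at 3 d and 13.6% at 14 d, with medians of -0.03 and -0.06. The lists were chosen with earlier results of these data known, so their counts are a description. Of 9 tested cytokines and cytokine receptors 8 rose at 3 d and 8 at 14 d, with list medians of 1.39 and 1.33, and most were receptors: Tnfrsf1a, a TNF receptor, rose by 1.93 and 1.797, and Il1r1, the interleukin-1 receptor, by 1.39 and 1.35. Il1b itself did not pass (0.28 and 0.18), and Tnf, Il6 and Ifng lay below the floor on every array. Il1a reached the floor on the aged 14 d array alone (6.84, against 5.57 in young rats), and its age-by-time call at 14 d (1.28 ± 0.21, limma's adjusted p = 0.0285) rests on that array, through which it entered the tests. That call ended with quantile normalization, where no gene was called. Of 9 NF-κB and AP-1 genes 6 rose at 3 d and 5 at 14 d, by 0.58 to 1.01 each, with list medians of 0.59 and 0.65; Nfkbia, the NF-κB inhibitor that NF-κB itself induces, rose by 1.01 and 0.96. Of the AP-1 genes Fosl1 rose at 3 d (0.61) and was lower at 14 d than at 3 d by 0.74 (limma's adjusted p = 0.036), the order of times seen in Ccl2 and Ccl7. Jun, Junb and Fos did not pass.

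Genes that carry the signal below CC receptors and proteases that cut chemokines rose as well. Beside their counts stand the 14.4% of all tested genes called higher at 3 d and the 13.6% at 14 d. These lists too were chosen with earlier results known. Of 9 tested signalling genes 7 rose at 3 d and 6 at 14 d (list medians 1.25 and 0.95), led by Rac2 (2.54 and 2.34), a GTPase of leukocyte migration, and Dock2 (2.03 and 2.32), which activates it. Rac2 had an age-by-time call at 14 d (1.31 ± 0.22, limma's adjusted p = 0.0285). Of 6 tested proteases 6 rose at 3 d and 5 at 14 d, with list medians of 1.06 and 1.498. Mmp12, a macrophage protease known to trim CC chemokines, rose by 3.49 and 2.61, and Mmp8 by 2.53 and 2.52. These 2 proteases also had age-by-time calls at 14 d, of 1.14 ± 0.21 and 1.60 ± 0.23 (limma's adjusted p = 0.0483 and 0.0121). Both were below the floor on the naive arrays and entered through the 4 stroke arrays. The age-by-time calls of Rac2, Mmp8 and Mmp12 ended with quantile normalization, where no gene was called. Each rests on the aged 14 d array, which was 1 pool. Mmp9 rose by 0.94 at 3 d and was lower at 14 d than at 3 d by 1.33 (limma's adjusted p = 0.018).

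Profiles over the 6 arrays, each centred on its own mean, showed which genes were nearest to each member by root mean square difference. Nearest to Ccl2 were Timp1, a metalloproteinase inhibitor (0.34 on the log2 scale, Pearson r = 0.98), S100a11 (0.38) and Mmp12 (0.46). Nearest to Ccl7 were Adamts1, a metalloproteinase, at 0.09 (r = 0.99), and Mybl2 and Cenpt, genes of dividing cells, at 0.09 and 0.10. For Ccl3 they were Aim2, a sensor of cytosolic DNA, at 0.18 (r = 0.99), Klra2 at 0.18 and Dapp1 at 0.22. Ccl6 had Ms4a6bl1 (0.22), Tfec, a transcription factor of macrophages (0.24), and Mmp8 (0.26). Ccl9 had Ptgs1 (0.13), which makes prostaglandins, Tmem106a (0.14) and the lysosomal mannosidase Man2b1 (0.14). Ccl4 lay nearest to Fkbp14 (0.05), Unc13d (0.07) and Ppfibp1 (0.08), and Ccl5 to Gstt1 (0.04), Nek8 (0.04) and Slc16a11 (0.06). All these genes were read on the same 6 arrays, and the likeness is a description.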

How the data were processed

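RNA pools of 6 groups of rats were each measured on 1 array. The deposited values, 1 for each probe set on each array, were used as log2 values; this base is an inference from their range and is not stated by the authors. R 2.14.0 and affy were used, per the submitters' processing notes; how background, summarisation and normalization were handled is not given in the sources used here. Per the labels' protocols 200 ng of total RNA was amplified per array. Array medians are nearly equal, so an overall change in RNA content would not show, and no batch is given.

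Of 28826 probe sets 15209 had 1 symbol in the platform annotation, 306 several and 13311 none; 15178 matched RefSeq GRCr8 by gene identifier and 0 symbols changed. Limma 3.58.1 in R 4.3.3 was fitted across all 10947 filtered genes, with 2 residual degrees of freedom and a prior of 5.56. The age-by-time fit at 14 d had 1 and 10.7. With 1 pool per group, no pools shared a condition. The spread behind the p-values is therefore the departure from the terms of the fit, moderated by the prior. It does not measure how like pools or single animals vary. Functions were tested on simulated data. The members, the 7 pathway lists and the 8 marker lists were chosen with earlier results of these data known. Of 128 list genes 110 matched by symbol and 18 did not. Genes were named from these lists, of which those of up to 12 genes could be named whole, and as the 3 nearest profiles of each member, passing over locus-style names; all members were named. The alternatives run were median centring, quantile normalization, no filter, a 60th percentile filter, trended robust variances, the mean of probe sets, no age term, and each array left out in turn. Promoters came from RefSeq; a local alignment scored matches 2 and mismatches -3.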

Additional observations from a re-analysis of the deposited data

Results flagged for a closer look

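For Ccl3 and Ccl6 the aged minus young difference at 14 d departed from that at the other times in the limma test. The terms were 1.73 and 2.10 on the log2 scale. Both calls ended with quantile normalization. They rest on the aged 14 d array, which was 1 pool, so age cannot be told apart from that pool or array. Several changes ran in opposite directions in the 2 ages, each from 1 pair of arrays per age, and these differences were not tested. From 3 d to 14 d Ccl6 changed by -0.87 (young) and 1.56 (aged), a difference of 2.43. Over the same interval Ccl9 changed by -0.11 and 1.18, a difference of 1.28. From naive to 3 d Ccl5 changed by -0.16 and 0.06, a difference of 0.22.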

How the results depend on the processing

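With 1 pooled array per group there were no replicates to pair. By the age term the times are already compared within each age. Without that term members called were again 4 at 3 d, 5 at 14 d and 2 between these times. No member's called change turned direction in any alternative run. The loss or gain of calls was as follows, and the cause was not tested except where fewer arrays or genes were used. Members called at 14 d against naive were 3 with trended, robust variances, which end the calls of Ccl3 and Ccl6, 4 with the 60th percentile filter, which drops Ccl4, Ccl5 and Ccl7 from the test, and 1 to 5 with an array left out. At 3 d they were 3 with those variances, without Ccl6, 3 with that filter, without Ccl7, and 2 to 5 with an array left out. For 14 d against 3 d they were 1 with that filter, without Ccl7, and 2 to 6 with an array left out: without the young 14 d array Ccl3 (1.87), Ccl4 (0.74), Ccl6 (1.40) and Ccl9 (0.97) were called higher, and without the young 3 d array Ccl9 (1.06). Members with an age-by-time call at 14 d were 0 with quantile normalization.

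Over all genes, calls with an array left out were 748 to 3733 at 3 d (2432 with all), 765 to 3471 at 14 d (2734), 221 to 576 for 14 d against 3 d (346), and 0 to 2 for aged against young, where trended, robust variances gave 1. Median centring gave 1336 higher and 1686 lower genes at 14 d, against 1491 and 1243. Age-by-time calls at 14 d were 0 with quantile normalization, 13 with median centring and 16 with no filter, against 43. At 3 d, against 1, they were 0 with quantile normalization, median centring or the 60th percentile filter, 4 with no filter, 8 with trended, robust variances and 2 with the mean of probe sets. At the naive time they were 45 with trended, robust variances, against 0.

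Changes not called with all arrays turned sign with an array left out for Ccl4 at 3 d (-0.01 to 0.65), Ccl5 at 3 d (-0.15 to 0.05) and Ccl6 between 14 d and 3 d (-0.70 to 1.40). The age difference did so for Ccl2 (-0.30 to 0.08), Ccl4 (-0.10 to 0.32), Ccl6 (-0.47 to 0.75) and Ccl9 (-0.09 to 0.55). With 1 array per group the number of arrays limits the precision, and 6 members lie below the floor on both naive arrays.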
